A study of Mus musculus with 6 samples.

Results

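Long noncoding RNAs (lncRNAs) are transcripts without an evident protein product, and the most abundant ones of mouse epiblast-like cells (EpiLCs) were described in WT cells and in cells without the POU factor OCT6.
Members were chosen by their measured level. Every gene that GENCODE M39 lists as lncRNA was taken when its CPM (counts scaled by library total), averaged over the 6 libraries, reached 10.
Of 9657 lncRNA genes in the counts, 4820 had a count and 99 reached that level.
Chromosomes 6 and 16 and the imprinted transcripts H19, Meg3, Rian, Mirg, Kcnq1ot1, Airn and Gnasas1 were left out, which removed 3 genes on chromosome 6, none on chromosome 16 and 6 of the named transcripts.
The remaining 90 lncRNAs, of 55416 genes in the table, were all tested, and their levels are given as a description because the level chose them.

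RNA-seq was performed on 3 WT and 3 Oct6 KO replicates at 48 h of differentiation. WT cells were 46C mESCs, a line that carries GFP under the neural gene Sox1, and KO cells were 1 clone of that line with a homozygous insertion in the coding sequence of Oct6 (official symbol Pou3f1), so that effects of the gene and of the clone cannot be told apart.
Both groups left 2i and LIF for N2B27 with 1% KSR on fibronectin, with bFGF at 12 and Activin A at 20 in units that the sample labels give as ng/ml and the series text as µg/ml.
Libraries came from total RNA with a stranded kit that removes ribosomal RNA, a preparation that also keeps transcripts without a poly(A) tail.

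LncRNAs act in several ways: some scaffold nuclear bodies, some carry small nucleolar RNAs (snoRNAs) or microRNAs in their introns, some bind proteins or microRNAs in the cytoplasm, and for others the act of transcription matters more than the product. In mouse pluripotent cells a set of them is tied to the pluripotent state, and many are switched off when the cells commit to a lineage. Most of the remaining ones have no described function and bear only a serial name.

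Library totals were 13202494, 10995505 and 14680930 counts in WT replicates 1, 2 and 3 and 12468807, 13332588 and 13213843 counts in KO replicates 1, 2 and 3.
Pou3f1, the targeted gene, stood at 161, 142 and 122 CPM in WT replicates 1, 2 and 3 and 127, 140.5 and 128 CPM in KO replicates 1, 2 and 3, where CPM from here on are scaled by edgeR's TMM factors.
Its groups overlapped and its log2 fold change, KO against WT throughout, was -0.10 (SE 0.11, adjusted p = 0.574 in the quasi-likelihood F test of edgeR after Benjamini-Hochberg correction). An insertion of this kind alters the reading frame and need not lower the transcript, so the level does not check the genotype labels.

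EpiLC identity was checked on 7 markers, all abundant, with a summed level of 3367, 3491 and 3129.5 CPM in WT and 3322, 3272 and 3147 CPM in KO replicates 1, 2 and 3 and Dnmt3b as the most abundant gene. Of these, Sox2, Fgf5 and Otx2 were called higher in KO at an adjusted p below 0.1 and none lower, and the edgeR adjusted p of Sox2 was 0.206 without KO replicate 3 and 0.111 without WT replicate 1.
With a replicate block, Pou5f1 (-0.19) and Dnmt3b (-0.19) also passed downward and Dnmt3a (0.23) upward, at adjusted p of 0.0665, 0.05501 and 0.0387 in the edgeR test, with ranges over the alternatives of 0.0665 to 0.396, 0.05501 to 0.458 and 0.0387 to 0.392.
Markers of other lineages were low. The 6 primitive endoderm genes summed to 6.701, 5.92 and 5.26 CPM in WT and 10.3, 5.004 and 14.9 CPM in KO replicates 1, 2 and 3, with Dab2 the most abundant on average and Gata6 called higher (1.35, SE 0.36, adjusted p = 0.0121, same edgeR test). Without KO replicate 3 the adjusted p of Gata6 in the same edgeR test was 0.113.
The 5 mesoderm and streak genes summed to 6.48, 6.28 and 6.14 CPM in WT and 10.9, 8.78 and 11.8 CPM in KO replicates 1, 2 and 3, most of it Eomes, which was called higher (0.87). T, Mixl1, Gsc and Mesp1 stayed below 1 CPM in every library.

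The 5 neural genes summed to 77.1, 76.3 and 72.9 CPM in WT and 38.2, 35.3 and 39.1 CPM in KO replicates 1, 2 and 3, with Nes and Tubb3 carrying most of the signal. Nes, Tubb3 and Sox1 were called lower in KO (-1.41, -0.61 and -1.78), Pax6 stayed below 1 CPM in every library, and Zic1 was at 0 in WT replicate 2 and KO replicate 3.
Among 5 trophoblast genes, which summed to 11.99, 13.7 and 12.6 CPM in WT and 14.4, 11.5 and 14.4 CPM in KO replicates 1, 2 and 3, Eomes was again the most abundant on average and Krt7 was called lower (-1.01), while Cdx2, Elf5 and Hand1 stayed below 1 CPM.
The 5 fibroblast genes summed to 9.53, 7.19 and 8.84 CPM in WT and 5.42, 4.77 and 5.102 CPM in KO replicates 1, 2 and 3, Thy1 was called lower (-1.22), Col1a2, the most abundant, passed when the replicate block was added (adjusted p = 0.0651 in the edgeR test, range over alternatives 0.0651 to 0.719), and Postn was at 0 in all libraries but WT replicate 2.
In bulk RNA, fewer cells of a type and less RNA per cell cannot be told apart, and the part of these marker differences in the lncRNA results was not tested.

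Levels of the 90 lncRNAs spanned from 10.01 to 1287 CPM of library total, with a median of 29.6 CPM. Malat1, a long nuclear RNA of splicing speckles, alone held 23.6% of their counts, the 12 most abundant held 53.5%, and these 12 were the only ones above 100 CPM.
At the lower end 32 lncRNAs lay under 20 CPM, and the smallest count of any of them in a library was 74.
Just above the limit stood Trmt61b (10.3 CPM, listed as lncRNA in M39), Gm6712 (10.04 CPM) and Gm20707 (10.006 CPM). Just below it stood Gm27045 (9.92 CPM), AA465934 (9.85 CPM) and A930004D18Rik (9.72 CPM).
In 7 lncRNAs 1 group mean lay under 10 CPM: the WT mean in D430020J02Rik, Platr7, Gm17491, 5530601H04Rik, Gm6712 and Gm20707, and the KO mean in Trmt61b.

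Per length, the order differed. Divided by all annotated exon bases, Bc1, a short RNA made by RNA polymerase III, reached 446 CPM per kb, ahead of Malat1 with 163 CPM per kb and Platr10 with 147 CPM per kb.
Divided by the canonical transcript instead, Bc1 was still first in the mean over the 6 libraries. It was followed by Platr10 with 299.7, Snhg14 with 284 and Gas5 with 261 CPM per kb. Bc1 averaged 109.8 CPM in WT and 46.9 CPM in KO, and in KO alone Snhg14 and Platr10 lay above it by canonical length.
On all exon bases Snhg14 reached only 7.31 and Gas5 41.3 CPM per kb, so the order below Bc1 in that mean depended on which isoforms were taken as the length. By canonical length the first place of Bc1 held for that mean and not in KO alone. The identifier version of 7 of the 90 matched M39 exactly, and the gene models counted by the authors may therefore have had other lengths for the rest.

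As a share of all counts, lncRNAs together took 0.877% ± 0.0421 of counts in WT and 0.891% ± 0.0214 in KO (SD, n = 3), a difference within the spread of the libraries (p = 0.7, two-sided exact permutation test, n = 3, in which 3 against 3 cannot go below 0.1).
The 90 abundant lncRNAs took 0.538% ± 0.0353 of counts in WT and 0.5497% ± 0.0149 in KO (SD, n = 3), also within the spread (p = 0.7, same exact permutation test). Both differences turned negative without WT replicate 2, to -0.00862 and -0.00694 percentage points.
Without Malat1 the other 89 took 0.397% ± 0.0192 of counts in WT and 0.433% ± 0.00779 in KO (SD, n = 3), with every KO library above every WT library (p = 0.1, the smallest this exact permutation test can give). Malat1 itself took 0.141% ± 0.0199 of counts in WT and 0.117% ± 0.0224 in KO (SD, n = 3), and its groups overlapped (p = 0.3, exact permutation test, which ignores pairs). In each same-numbered pair the share of Malat1 was lower in KO, and its level passed with the replicate block (adjusted p = 0.0115, edgeR, range over alternatives 0.0115 to 0.663).
Mitochondrial genes had the same mean share in both groups, at 0.504% in WT and 0.504% in KO. SnoRNA genes were highest in replicate 2 of each group, at 0.0936% and 0.0787% of counts against at most 0.0561% in the other libraries.

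Between the genotypes, more abundant lncRNAs were higher in KO EpiLCs than lower. Of 90, 27 (30%) passed an adjusted p below 0.1 in the edgeR test, beside 24.3% of all 15746 genes tested, 15.8% of the 868 lncRNAs tested and 22.4% of 8143 protein-coding genes at 10 CPM or more outside chromosomes 6 and 16.
In the upward direction there were 22 (24.4%), beside 11.8%, 11.5% and 11.1% in the same order. D430020J02Rik, Gm17491 and Gm6712, counted there, had WT means under 10 CPM and reached the limit through KO, so the change itself helped to admit them. With a limit of 20 CPM, 18 of 58 were called higher and 4 lower. In the downward direction there were 5 (5.56%), beside 12.5%, 4.26% and 11.3%. With the replicate block 29 were called higher and 8 lower, beside 15% and 15.3% of all genes tested with that block.
The median log2 fold change was 0.15 over the 90, against 0.0014 over all genes, 0.090 over all lncRNAs tested and 0.011 over the protein-coding genes. It was above 0 for 67 of the 90 (74.4%), for 58.9% of all lncRNAs tested and for 50.2% of all genes.

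Changes were modest in size. Only 2, Gm32885 upward and Bc1 downward, passed with a log2 fold change of 1 or more in either direction, beside 6.21% of all genes tested. The median among those called was 0.47 upward and -0.45 downward, with standard errors of at most 0.25 over all 90.
The WT and KO values did not overlap in 34 of 90 lncRNAs, 26 with KO above and 8 with KO below, where 33.6% of all genes tested had no overlap.
The call held for 16 of the 27 in each of 13 alternative settings.

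**Figure D1:**
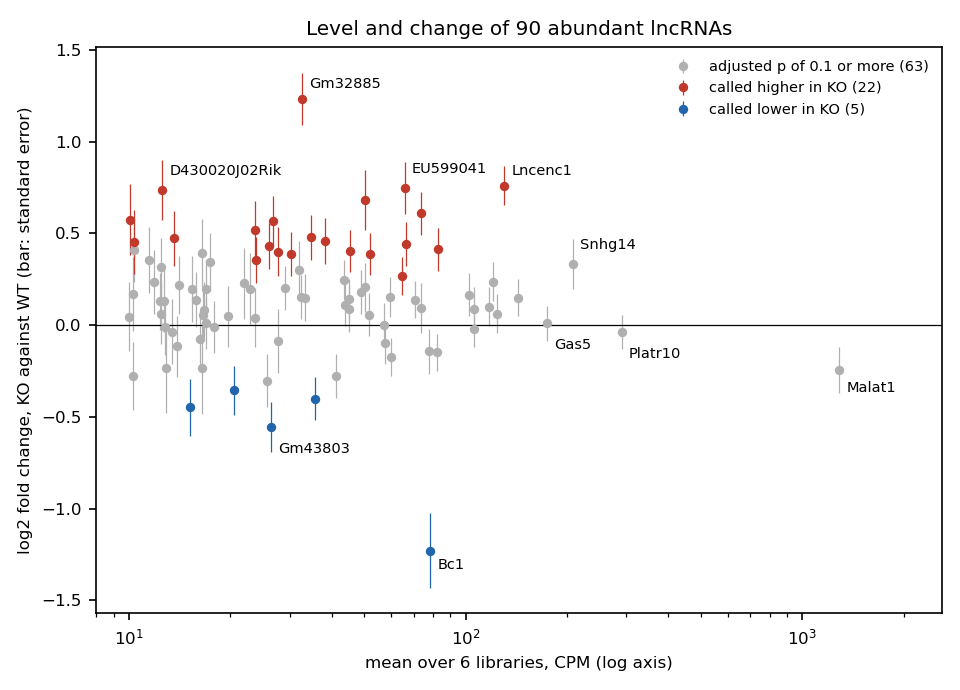
Mean level over 6 libraries (horizontal axis, CPM, logarithmic) and log2 fold change, KO against WT (vertical axis), for 90 abundant lncRNAs, 1 point each, with bars for the standard error. The 22 red points lie above 0 and the 5 blue points below it, and Malat1, at the far right, is grey.

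**Figure D2:**
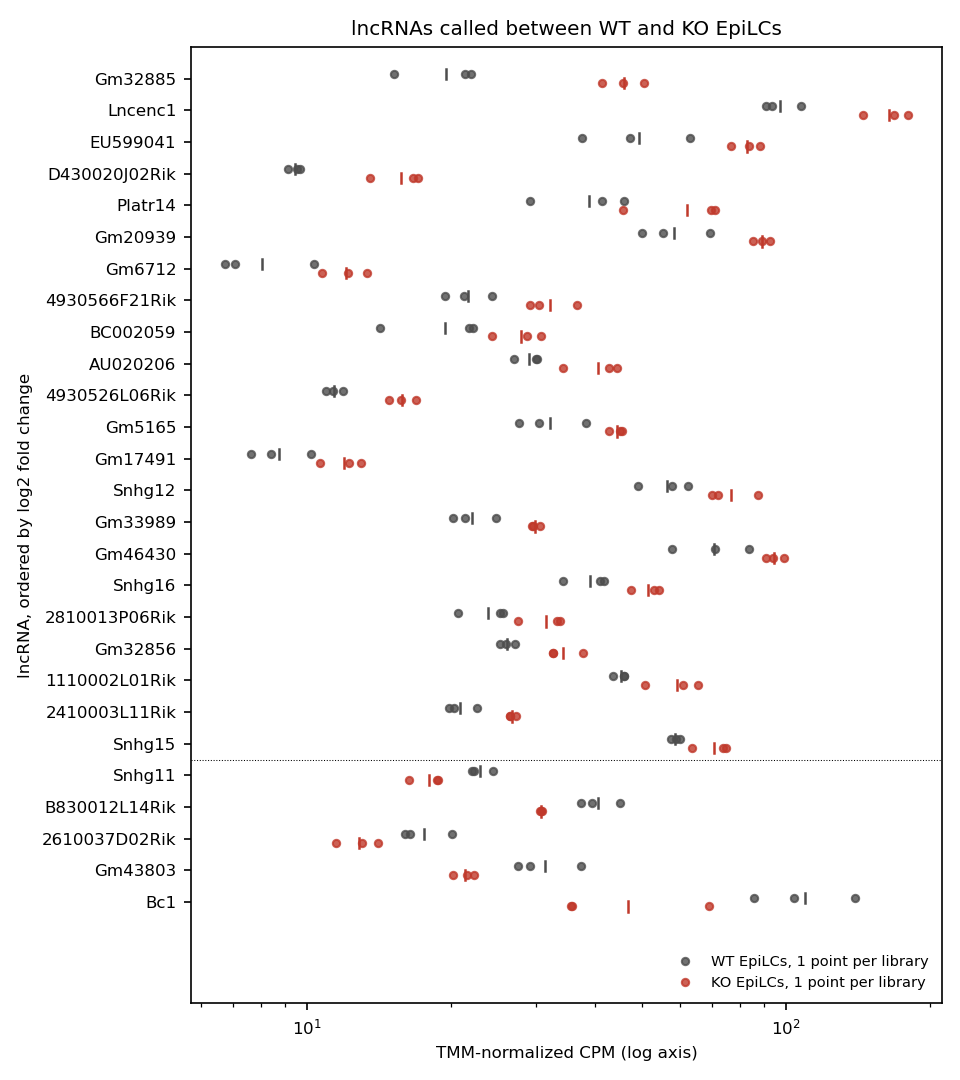
TMM-normalized CPM (logarithmic axis) of the 27 lncRNAs called between the genotypes, ordered by log2 fold change, with 1 point per library and a tick at the mean of 3. KO points (red) lie right of all WT points (grey) above the dotted line, except for Platr14, and left of them below it.

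Of the lncRNAs that build or stay in nuclear structures, the abundant ones, Malat1, Neat1 and Firre, were not called. Malat1 and Firre passed when a replicate block was added. Malat1 also passed with no filter, without WT replicate 2 and without KO replicate 1, and Firre with library totals alone and without KO replicate 2. Malat1 (chr19:5845717-5853602, minus strand, GRCm39) stood at 1503, 1178 and 1497 CPM in WT replicates 1, 2 and 3 and 1350.2, 938 and 1240.2 CPM in KO replicates 1, 2 and 3.
KO replicate 2 was the lowest library and WT replicate 2 the lowest of its group, and the groups overlapped. Its log2 fold change was -0.24 (SE 0.13, adjusted p = 0.206 in the edgeR test), and ran from -0.36 to -0.10 with a library left out. With the replicate block the adjusted p was 0.0115 in the same edgeR test, within a range of 0.0115 to 0.663 over the alternatives.
Neat1, the scaffold of paraspeckles, varied more within groups than between them, with 25.3, 11.4 and 16.5 CPM in WT replicates 1, 2 and 3 and 19.7, 9.24 and 16.5 CPM in KO replicates 1, 2 and 3. Replicate 2 was lowest in both groups, and Neat1 had a log2 fold change of -0.24 (SE 0.25, adjusted p = 0.581 in the edgeR test).
Firre, an X-linked RNA that contacts several chromosomes from its own locus, stood at 43.2, 42.7 and 49.7 CPM in WT replicates 1, 2 and 3 and 32.6, 41.9 and 37.7 CPM in KO replicates 1, 2 and 3. Every KO library lay below every WT library, and the log2 fold change was -0.28 (SE 0.12, adjusted p = 0.127, same edgeR test), with 0.0627 in the replicate block and 0.0627 to 0.407 over the alternatives.
Over the 3 the median log2 fold change was -0.24, with 0 called by edgeR. At the 24.3% called over all genes tested, a count of 0 among so few says little.

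Miat, a related nuclear-retained RNA whose mean of 9.01 CPM of library total left it just below the limit, was called lower. It had 13.7, 8.92 and 10.3 CPM in WT and 8.41, 7.54 and 5.102 CPM in KO, with the KO values below those of WT, and a log2 fold change of -0.65 (SE 0.21, adjusted p = 0.0393, same edgeR test). Its adjusted p in that edgeR test was 0.189 without KO replicate 3 and 0.188 without WT replicate 1.

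Host genes of snoRNAs were the largest group by role, with 19 of the 90. Their spliced transcripts are by-products of intron-encoded snoRNAs, and several begin with a pyrimidine tract like that of ribosomal protein genes and are removed by nonsense-mediated decay.
For 16 of the 19 a RefSeq window of the start was found, and in 5 of them (Gas5, Snhg8, Snhg12, Snhg3 and 1110038B12Rik) a run of at least 5 pyrimidines beginning with C lay within 3 bases of the start on the given strand. Counted by window, it lay in 14 of 75 windows of abundant lncRNAs and in 11.5% of 32851 windows of the table. Gas5, Snhg8 and Snhg12 are shown because Snhg12 was called and Gas5 and Snhg8 were not, with that run in capitals. Positions are chr1:160862716-160862765 (plus strand), chr3:123301956-123302005 (minus strand) and chr4:132035969-132036018 (plus strand), found in GRCm39 by exact match of the RefSeq windows, whose table is on GRCm38.p6.
Gas5: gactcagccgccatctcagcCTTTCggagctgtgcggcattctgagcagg
Snhg8: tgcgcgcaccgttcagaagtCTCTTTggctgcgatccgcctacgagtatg
Snhg12: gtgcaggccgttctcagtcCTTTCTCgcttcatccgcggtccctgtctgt

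Host genes were called about as often as genes in general. Of 19, 3 were called higher and 1 lower by edgeR, where 24.3% of all genes tested and 30% of the abundant lncRNAs were called, and the median log2 fold change was 0.14, close to that of all 90 abundant lncRNAs. Over all 21 listed hosts tested it ran from 0.042 to 0.17 with a library left out.
Snhg12 stood at 48.99, 62.4 and 57.9 CPM in WT replicates 1, 2 and 3 and 72.1, 87.6 and 70.2 CPM in KO replicates 1, 2 and 3. Each KO library lay above each WT library, replicate 2 being highest in both groups, and the log2 fold change was 0.44 (SE 0.12, adjusted p = 0.0114, same edgeR test).
Snhg16 had 40.9, 41.7 and 34.2 CPM in WT replicates 1, 2 and 3 and 54.2, 52.96 and 47.5 CPM in KO replicates 1, 2 and 3. Here too the groups were apart, with a log2 fold change of 0.41 (SE 0.11, adjusted p = 0.0168, same edgeR test).
Snhg15 had 58.8, 57.5 and 59.9 CPM in WT replicates 1, 2 and 3 and 73.96, 74.9 and 63.6 CPM in KO replicates 1, 2 and 3, with close WT values and KO replicate 3 nearest to them. Its log2 fold change was 0.27 (SE 0.10, adjusted p = 0.0789, same edgeR test), and in the alternatives that ended the call the adjusted p was 0.109 with library totals alone, 0.157 with no filter, 0.231 without KO replicate 1, 0.258 without KO replicate 2, 0.142 without WT replicate 1, 0.178 without WT replicate 2 and 0.104 without WT replicate 3.
Snhg11, a host gene known from neurons, was the one called lower, at 22.3, 24.5 and 22.1 CPM in WT replicates 1, 2 and 3 and 16.3, 18.8 and 18.7 CPM in KO replicates 1, 2 and 3. All KO values lay under all WT values, with a log2 fold change of -0.35 (SE 0.13, adjusted p = 0.0743, same edgeR test), and the call ended with an adjusted p of 0.108 with DESeq2 and, by edgeR, 0.123 with no filter, 0.2304 without KO replicate 1, 0.117 without KO replicate 2, 0.114 without KO replicate 3 and 0.201 without WT replicate 2.

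Gas5, whose spliced RNA accumulates in growth arrest, stood at 169.7, 169 and 183 CPM in WT replicates 1, 2 and 3 and 177, 188 and 161 CPM in KO replicates 1, 2 and 3. The groups overlapped fully, and Gas5 had a log2 fold change of 0.010 (SE 0.10, adjusted p = 0.961, same edgeR test), which became -0.015 with library totals alone.
Snhg1 stood at 137, 126 and 143 CPM in WT replicates 1, 2 and 3 and 150.2, 162 and 138 CPM in KO replicates 1, 2 and 3, again overlapping, with a log2 fold change of 0.15 (SE 0.10, adjusted p = 0.341, same edgeR test).
Snhg14, the long imprinted host of the Snord116 and Snord115 clusters that runs antisense to Ube3a, stood at 179.9, 152 and 222 CPM in WT replicates 1, 2 and 3 and 280.3, 189 and 229 CPM in KO replicates 1, 2 and 3. KO replicate 1 was the highest library and KO replicate 2 fell inside the WT range. Its log2 fold change of 0.33 (SE 0.14, adjusted p = 0.106, same edgeR test) passed with the replicate block (adjusted p = 0.00951, edgeR), with a range of 0.00951 to 0.492 over the alternatives.
Snhg8 passed among the alternatives with the block only. It stood at 24.05, 33.1 and 29.02 CPM in WT replicates 1, 2 and 3 and 30.8, 45.6 and 29.6 CPM in KO replicates 1, 2 and 3, with replicate 2 highest in both groups and KO replicates 1 and 3 inside the WT range, and had a log2 fold change of 0.30 (SE 0.16, adjusted p = 0.216, same edgeR test) and 0.0787 in the replicate block, the alternatives running over 0.0787 to 0.8201. With a library left out its log2 fold change ran from 0.075 to 0.42.
Snhg5 stood at 112, 124 and 128 CPM in WT and 120.1, 143 and 116 CPM in KO, overlapping, with a log2 fold change of 0.064 (SE 0.10, adjusted p = 0.744, same edgeR test). The 1110038B12Rik stood at 129, 108 and 104 CPM in WT and 121, 131 and 112 CPM in KO, also overlapping, with 0.10 (SE 0.11, adjusted p = 0.582, same edgeR test).
The remaining host genes, Snhg3, Snhg4, Snhg6, Snhg17, Snhg20, Dancr, Zfas1, Epb41l4aos and 2410006H16Rik, had log2 fold changes between -0.17 (Zfas1) and 0.20 (Epb41l4aos), and none was called.

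Genes of the machinery that acts on these transcripts were examined beside them. Of the 8 core proteins of snoRNA particles, such as Fbl, Nop56 and Dkc1, edgeR called 0, beside 24.3% of all genes tested, and so few genes say little. Their median log2 fold change was 0.066, which ran from 0.021 to 0.13 with a library left out.
Of 14 factors of nonsense-mediated decay, 1 was called higher and 4 lower, beside 11.8% and 12.5% of all genes tested. Their median was -0.061, and ran from -0.11 to -2.56e-06 with a library left out. Smg5, which recruits decay enzymes to phosphorylated UPF1, had 353, 337 and 282 CPM in WT and 225, 225 and 217 CPM in KO, with no overlap, and a log2 fold change of -0.54 (SE 0.10, adjusted p = 7.85e-04, same edgeR test).
Upf1, the central helicase, had 266, 286 and 248 CPM in WT and 164, 193 and 213 CPM in KO, again with no overlap, and a log2 fold change of -0.49 (SE 0.11, adjusted p = 0.00287, same edgeR test). The kinase partner Smg9 (-0.53) and the endonuclease Smg6 (-0.33) were also called lower, the adjusted p of Smg6 being 0.164 without KO replicate 1 in the edgeR test.
Upf2, which bridges UPF1 and UPF3, was called higher (0.37, SE 0.15, adjusted p = 0.0911, same edgeR test), and its call ended with an adjusted p of 0.108 with DESeq2 and, by edgeR, 0.141 with library totals alone, 0.318 without KO replicate 1, 0.1397 without KO replicate 3, 0.108 without WT replicate 1 and 0.392 without WT replicate 2.
Eif4a3, of the exon junction complex, passed when the replicate block was added (adjusted p = 0.0542 in the edgeR test, range over alternatives 0.0542 to 0.343).

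Among host genes of microRNAs, Mir17hg is the precursor of the miR-17-92 cluster, which supports proliferation in embryonic cells. The 6 mature products of its main strands fall into 4 families by seed (bases 2 to 8, in capitals), and they are shown because the counts describe the precursor and not these products. They lie on the plus strand of chromosome 14 between chr14:115281116-115281928 (GRCm39, sequences from RefSeq).
miR-17-5p: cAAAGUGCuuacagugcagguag
miR-20a-5p: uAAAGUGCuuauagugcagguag
miR-18a-5p: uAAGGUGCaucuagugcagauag
miR-19a-3p: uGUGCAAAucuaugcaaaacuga
miR-19b-3p: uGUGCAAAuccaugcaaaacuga
miR-92a-3p: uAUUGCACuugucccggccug

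MiR-17-5p and miR-20a-5p share the seed AAAGUGC, and miR-19a-3p and miR-19b-3p share GUGCAAA. Mir17hg stood at 102, 102 and 127 CPM in WT replicates 1, 2 and 3 and 133, 131 and 127 CPM in KO replicates 1, 2 and 3. WT replicate 3 lay just above KO replicate 3, the other WT libraries below all KO libraries. The log2 fold change was 0.24 (SE 0.10, adjusted p = 0.128, same edgeR test), and 0.0547 in the replicate block, within 0.0238 to 0.3497 over the alternatives.
Pvt1, a neighbour of Myc that holds several microRNAs, stood at 16.8, 16.5 and 12.8 CPM in WT replicates 1, 2 and 3 and 20.6, 16.4 and 21.5 CPM in KO replicates 1, 2 and 3. KO replicate 2 lay just below WT replicates 1 and 2, and Pvt1 had a log2 fold change of 0.35 (SE 0.16, adjusted p = 0.146, same edgeR test), with 0.0835 in the replicate block and 0.0809 to 0.399 over the alternatives.
Dleu2, the host of microRNAs of the miR-15 family, overlapped between the groups at 65.2, 88.6 and 90.5 CPM in WT and 65.1, 77.9 and 78.2 CPM in KO, with a log2 fold change of -0.14 (SE 0.12, adjusted p = 0.483, same edgeR test).
In all, 4 microRNA hosts were abundant and 0 were called by edgeR, too few to set beside the 24.3% of all genes tested, with a median of 0.22, against -0.14 over all 9 listed hosts tested. The latter was 0.21 with 10 counts in every library required and ran from -0.28 to -0.060 with a library left out, so its direction was not firm.
Among hosts below the limit or on chromosome 6, Mir9-3hg (-1.39) and Lncpint (-0.78) were called lower, at 2.01, 1.91 and 1.82 CPM in WT and 0.727, 0.539 and 0.9004 CPM in KO and at 6.03, 5.65 and 4.99 CPM in WT and 3.64, 2.08 and 3.98 CPM in KO. The edgeR adjusted p of Lncpint was 0.197 without KO replicate 2 and 0.105 without WT replicate 1.

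Ftx, also a microRNA host, lies in the X inactivation centre, where it is known as a positive regulator of Xist. It stood at 51.97, 37.1 and 51.1 CPM in WT replicates 1, 2 and 3 and 62.2, 47.4 and 52.6 CPM in KO replicates 1, 2 and 3, with overlapping groups and replicate 2 lowest in each, and a log2 fold change of 0.21 (SE 0.13, adjusted p = 0.329, same edgeR test).
Of the 7 genes of the centre that were listed, Ftx alone was an abundant lncRNA. Of 6 tested, 2 were called higher and 0 lower, beside 11.8% and 12.5% of all genes tested, and so few genes say little.
Xist itself, far under the limit, had 1.34, 1.37 and 1.48 CPM in WT replicates 1, 2 and 3 and 8.89, 6.77 and 6.53 CPM in KO replicates 1, 2 and 3. Every KO library was several times above every WT library, with a log2 fold change of 2.39 (SE 0.26, adjusted p = 4.43e-06, same edgeR test).
Chic1, a protein-coding gene there, had 48.4, 34.4 and 49.2 CPM in WT and 57.1, 58.3 and 55.4 CPM in KO and a log2 fold change of 0.37 (SE 0.13, adjusted p = 0.0474, same edgeR test), and its adjusted p was 0.114 without KO replicate 1, 0.123 without KO replicate 2 and 0.247 without WT replicate 2.

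The abundant lncRNAs listed as cytoplasmic scaffolds or sponges, Norad and Oip5os1, were not called. Norad, which sequesters Pumilio proteins, stood at 102, 99.9 and 118 CPM in WT replicates 1, 2 and 3 and 98.7, 108 and 109 CPM in KO replicates 1, 2 and 3. The values of both groups were interleaved, and the log2 fold change was -0.019 (SE 0.10, adjusted p = 0.927, same edgeR test). A lncRNA copy, Gm7292, matched 99.2% of 2537 aligned bases of Norad, so reads could have been divided between them.
Oip5os1, known as Cyrano and as a trigger of the decay of a microRNA, stood at 98.3, 84.6 and 125 CPM in WT replicates 1, 2 and 3 and 105, 116 and 106 CPM in KO replicates 1, 2 and 3, also interleaved, with a log2 fold change of 0.086 (SE 0.12, adjusted p = 0.695, same edgeR test).
Tug1, of the same list, is annotated as protein-coding and was thus not among the abundant lncRNAs. Of 4 genes of that list tested, 1 was called lower by edgeR, beside 12.5% of all genes tested. It was Lncpint on chromosome 6 (-0.78), whose values are given with the microRNA hosts.
Of 11 Pumilio and microRNA effector genes, 1 was called higher and 1 lower, beside 11.8% and 12.5% of all genes tested. The silencing scaffold Tnrc6c was called lower (-0.53, SE 0.11, adjusted p = 0.00284, same edgeR test) and Dgcr8, the partner of Drosha, on chromosome 16, higher (0.32, SE 0.10, adjusted p = 0.0232, same edgeR test). Without KO replicate 1 the adjusted p of Dgcr8 was 0.106 in that edgeR test.

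Of the lncRNAs tied to the pluripotent state, those called were higher in KO. Lncenc1 (chr13:97571455-97652188, plus strand), which is expressed in naïve embryonic stem cells, was the most abundant lncRNA called. The sequence around its RefSeq start (chr13:97571378-97571527, plus strand) is shown for that reason, with the first transcribed base in capitals.
Lncenc1: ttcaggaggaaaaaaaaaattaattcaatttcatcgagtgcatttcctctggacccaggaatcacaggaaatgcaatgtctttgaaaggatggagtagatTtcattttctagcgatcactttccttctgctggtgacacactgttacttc

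Lncenc1 stood at 93.3, 107 and 90.7 CPM in WT replicates 1, 2 and 3 and 145, 168 and 179.7 CPM in KO replicates 1, 2 and 3. The lowest KO library lay well above the highest WT library, and the log2 fold change was 0.76 (SE 0.11, adjusted p = 5.62e-05, same edgeR test), the call holding in all 13 alternatives.
Platr14, a pluripotency-associated transcript (chr2:104389483-104402779, plus strand), stood at 29.3, 41.2 and 45.96 CPM in WT replicates 1, 2 and 3 and 45.7, 69.7 and 71.1 CPM in KO replicates 1, 2 and 3. KO replicate 1 lay at the level of WT replicate 3, so the groups touched, although replicate 1 was lowest in both. Its log2 fold change was 0.68 (SE 0.16, adjusted p = 0.00597, same edgeR test).
Platr10, next in abundance to Malat1, stood at 283, 286 and 314 CPM in WT replicates 1, 2 and 3 and 275, 301 and 285 CPM in KO replicates 1, 2 and 3, and WT and KO values were interleaved. It had a log2 fold change of -0.036 (SE 0.094, adjusted p = 0.844, same edgeR test), 0.011 without WT replicate 3.
Eprn, named ephemeron for its brief expression on exit from the naïve state, stood at 19.2, 30.96 and 35.6 CPM in WT replicates 1, 2 and 3 and 24.7, 30.8 and 25.3 CPM in KO replicates 1, 2 and 3, with overlapping groups. Its log2 fold change was -0.088 (SE 0.17, adjusted p = 0.788, same edgeR test).
Platr4 and Platr7 passed with the replicate block, in opposite directions, with adjusted p and log2 fold changes of that fit of 0.0599 (-0.31; 0.0599 to 0.428 over alternatives) and 0.0773 (0.41; 0.0773 to 0.388 over alternatives) from edgeR.

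Platr22 had 16.7, 14.3 and 17.9 CPM in WT and 16.5, 17.7 and 16.7 CPM in KO, overlapping, and a log2 fold change of 0.056 (SE 0.15, adjusted p = 0.843, same edgeR test).
With Platr22, Snhg3 and Snhg14, which the list also holds, 2 of 9 abundant pluripotency lncRNAs were called higher and 0 lower, beside 24.4% higher of all 90 and 11.8% of all genes tested. Their median log2 fold change of 0.089 lay below the 0.15 of all abundant lncRNAs. Platr21, abundant too but not on the list, was not called (0.13, SE 0.17, adjusted p = 0.661, same edgeR test).
Over the whole list, 30 of 36 were found and 21 tested, 8 were called higher and 0 lower, and the median was 0.50, above that of all genes under each scaling. The list was written from general knowledge with earlier results of these data known.

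**Figure D3:**
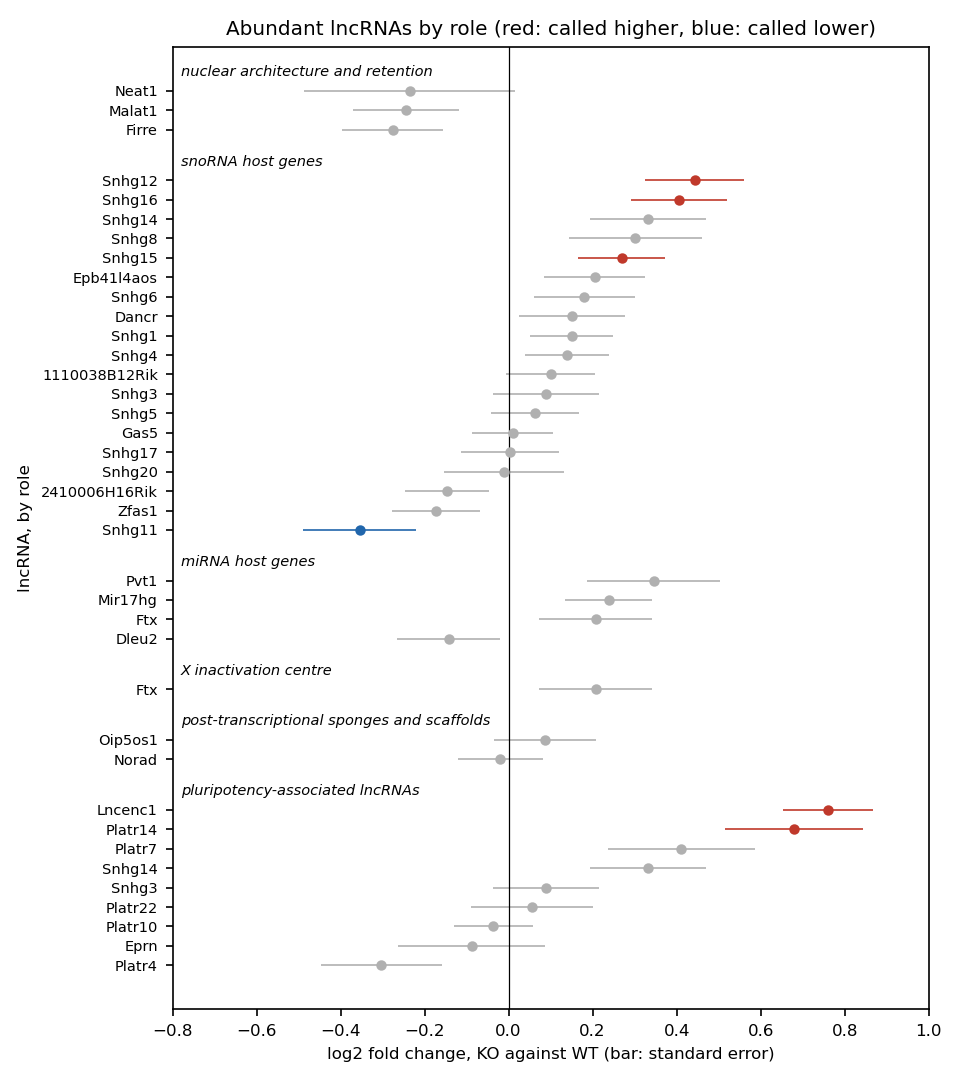
Log2 fold change, KO against WT (horizontal axis), of the abundant lncRNAs with a listed role, 1 point per lncRNA, with bars for the standard error and groups set apart by role. Red points passed upward and the blue point downward at an adjusted p below 0.1, and lncRNAs on more than 1 list appear on each.

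The largest increase was that of Gm32885, a lncRNA on chromosome 15 without a described function (chr15:97054520-97065945, minus strand). Its RefSeq start window (chr15:97065076-97065225, minus strand) is printed because no other abundant lncRNA rose as far, with the first transcribed base in capitals.
Gm32885: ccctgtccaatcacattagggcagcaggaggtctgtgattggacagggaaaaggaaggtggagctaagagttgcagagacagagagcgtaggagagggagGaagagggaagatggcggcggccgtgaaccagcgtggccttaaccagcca

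Gm32885 stood at 15.2, 22.04 and 21.3 CPM in WT replicates 1, 2 and 3 and 45.7, 50.6 and 41.3 CPM in KO replicates 1, 2 and 3. All KO libraries were well above the WT range, with a wide gap between the groups, and the log2 fold change was 1.23 (SE 0.14, adjusted p = 7.62e-06, same edgeR test). Its transcript aligned with 33 others over at least 300 bases, the best match being 99.4% over 313 bases, so part of its counts may be shared.
EU599041 on chromosome 7 stood at 47.2, 37.4 and 63.1 CPM in WT replicates 1, 2 and 3 and 88.3, 83.8 and 76.8 CPM in KO replicates 1, 2 and 3. WT replicate 2 was lowest and WT replicate 3 highest of its group, still below all KO libraries, and the log2 fold change was 0.75 (SE 0.14, adjusted p = 8.82e-04, same edgeR test).
D430020J02Rik, which starts 132 bases from the condensin gene Ncapg2 on the other strand, stood at 9.53, 9.11 and 9.65 CPM in WT replicates 1, 2 and 3 and 13.5, 17.01 and 16.7 CPM in KO replicates 1, 2 and 3. Its WT values were nearly identical, all under the KO values, with a log2 fold change of 0.74 (SE 0.16, adjusted p = 0.00292, same edgeR test).
4930566F21Rik, which starts next to the GTPase gene Gpn1, had 24.3, 21.3 and 19.4 CPM in WT and 29.3, 36.6 and 30.5 CPM in KO, without overlap, and 0.57 (SE 0.13, adjusted p = 0.00509, same edgeR test) as log2 fold change.
AU020206 had 30.004, 30.1 and 27.1 CPM in WT and 44.5, 34.3 and 42.7 CPM in KO, with KO replicate 2 nearest to the WT values, and 0.48 (SE 0.12, adjusted p = 0.0101, same edgeR test).

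Gm10076, a lncRNA of unknown role among the 12 most abundant, had 85.9, 109 and 94.4 CPM in WT and 97.4, 127 and 99.8 CPM in KO and a log2 fold change of 0.17 (SE 0.12, adjusted p = 0.379, same edgeR test). At the limit, Trmt61b (-0.28) and Gm20707 (0.047) were not called by edgeR.
Other lncRNAs called higher, outside the roles above, were 1110002L01Rik, 2410003L11Rik, 2810013P06Rik, 4930526L06Rik, Gm17491, Gm33989 and Gm46430, with log2 fold changes between 0.36 and 0.47. They were named after their values were seen, to account for all called.
Of these, Gm33989 and Gm46430 kept the call in all alternatives. Gm46430 matched the protein-coding gene Zfp825 at 97.7% over 349 bases. In the same way 1110002L01Rik matched Gm63394 at 98.97% over 777 bases, so part of the counts of both may be shared. The adjusted p of 1110002L01Rik was 0.129 without KO replicate 2, and that of 4930526L06Rik 0.122 without KO replicate 1, in the edgeR test.
2810013P06Rik had an edgeR adjusted p of 0.136 without KO replicate 2, 0.146 without KO replicate 3 and 0.162 without WT replicate 1. For 2410003L11Rik the same edgeR test gave 0.116 with no filter, 0.135 without KO replicate 1, 0.118 without KO replicate 2, 0.106 without KO replicate 3, 0.147 without WT replicate 2 and 0.136 without WT replicate 3, and for Gm17491 the adjusted p was 0.1396 with DESeq2 and, by edgeR, 0.101 with library totals alone, 0.132 with no filter, 0.179 without KO replicate 1, 0.234 without KO replicate 2, 0.1603 without WT replicate 1 and 0.234 without WT replicate 3.

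Some of the lncRNAs called higher were alike in sequence around their starts. RefSeq windows from 250 bases before to 50 bases after the start were found for 64 of the 90 lncRNAs. BC002059, Gm5165, Gm6712 and Gm20939 on chromosome 17 were picked after the values were seen. The longest stretch common to their windows had 14 bases, TTACTGGCCAATCA. A search of all windows then found this stretch also in Gm32856 on chromosome 8, and so in 5 abundant lncRNAs. No test was made of the stretch. Gm5165 and Gm32856 were named for it.
On either strand it occurred in 13 of 32851 windows (0.0396%), and it holds CCAAT, a pentamer found in 37.4% of windows.
The windows below run in the direction of transcription with the stretch in capitals, at chr17:17171604-17171727, chr17:17454921-17455044, chr17:17514485-17514608, chr17:95172207-95172330 and chr8:129989972-129990095 in that order, all on the plus strand of GRCm39. They show how far the likeness extends beyond the stretch.
BC002059: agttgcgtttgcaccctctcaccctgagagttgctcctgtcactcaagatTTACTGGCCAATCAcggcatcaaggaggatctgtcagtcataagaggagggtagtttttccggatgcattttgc
Gm5165: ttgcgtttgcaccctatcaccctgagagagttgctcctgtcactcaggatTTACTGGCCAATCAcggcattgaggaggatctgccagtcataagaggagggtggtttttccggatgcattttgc
Gm6712: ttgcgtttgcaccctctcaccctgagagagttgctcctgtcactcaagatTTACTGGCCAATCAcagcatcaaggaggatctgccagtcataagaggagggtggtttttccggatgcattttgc
Gm20939: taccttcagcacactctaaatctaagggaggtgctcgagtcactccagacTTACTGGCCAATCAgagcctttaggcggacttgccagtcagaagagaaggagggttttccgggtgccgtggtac
Gm32856: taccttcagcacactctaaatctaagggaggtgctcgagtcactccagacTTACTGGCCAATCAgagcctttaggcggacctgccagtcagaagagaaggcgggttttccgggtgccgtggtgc

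Each of the 5 was called higher in KO. The stretch was taken from BC002059, Gm5165, Gm6712 and Gm20939 after the values were seen, and Gm6712 reached the 10 CPM limit through KO. This count is therefore no independent support for a link. Gm20939 stood at 55.2, 50.1 and 69.4 CPM in WT replicates 1, 2 and 3 and 92.8, 88.99 and 85.4 CPM in KO replicates 1, 2 and 3. The KO libraries were close together above a wider WT group, and the log2 fold change was 0.61 (SE 0.12, adjusted p = 9.45e-04, same edgeR test).
Gm5165 stood at 30.5, 27.7 and 38.3 CPM in WT replicates 1, 2 and 3 and 45.4, 45.1 and 42.6 CPM in KO replicates 1, 2 and 3, the same arrangement at a lower level, with a log2 fold change of 0.46 (SE 0.13, adjusted p = 0.0135, same edgeR test).
BC002059 stood at 22.2, 14.2 and 21.8 CPM in WT replicates 1, 2 and 3 and 30.7, 28.8 and 24.3 CPM in KO replicates 1, 2 and 3. WT replicate 2 was well below the other WT libraries, and the log2 fold change was 0.52 (SE 0.16, adjusted p = 0.0276, same edgeR test). Its adjusted p was 0.118 without KO replicate 1 and 0.1501 without WT replicate 2 in the edgeR test.
Gm6712 stood at 7.07, 6.74 and 10.3 CPM in WT replicates 1, 2 and 3 and 13.3, 12.2 and 10.7 CPM in KO replicates 1, 2 and 3, and WT replicate 3 nearly reached KO replicate 3. Its log2 fold change was 0.58 (SE 0.19, adjusted p = 0.0411, same edgeR test), and the adjusted p was 0.148 without KO replicate 1, 0.128 without WT replicate 1 and 0.156 without WT replicate 2.
Gm32856 stood at 26.1, 25.3 and 27.1 CPM in WT replicates 1, 2 and 3 and 37.7, 32.6 and 32.6 CPM in KO replicates 1, 2 and 3, with tight WT values and KO replicate 1 highest. The log2 fold change was 0.39 (SE 0.12, adjusted p = 0.0273, same edgeR test), and 0.139 was the adjusted p without KO replicate 1.

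The stretch also lay in windows of 6 other symbols. Of these, only the protein-coding genes B230307C23Rik on chromosome 16 and Zfp932 on chromosome 5 were in the counts. Both were called higher, beside 11.8% of all genes tested, and so few genes say little. The other 5 of the 7 genes tested with the stretch are the lncRNAs above, and the stretch was taken from those on chromosome 17. A count over all 7 would therefore largely restate that choice.
B230307C23Rik had 11.3, 12.5 and 15.4 CPM in WT and 28.2, 32.6 and 32.7 CPM in KO, with the groups far apart and a log2 fold change of 1.25 (SE 0.15, adjusted p = 8.14e-06, same edgeR test). Zfp932 had 28.1, 24.6 and 32.8 CPM in WT and 40.3, 34.6 and 34.9 CPM in KO, nearer to each other but not overlapping, and 0.36 (SE 0.13, adjusted p = 0.0616, same edgeR test). Its adjusted p in that edgeR test was 0.239 without KO replicate 1, 0.122 without WT replicate 1 and 0.249 without WT replicate 2.
For comparison, of 375 protein-coding genes with a Zfp symbol tested, 96 (25.6%) were called higher and 25 (6.67%) lower, with a median of 0.16.
The windows around the starts were alike. Between canonical transcripts, no aligned stretch of at least 300 bases at 90% identity joined any of these lncRNAs to each other. BC002059 and Gm6712 had no such match at all, but shorter matches and other isoforms were not counted. Gm20939 and Gm32856 each matched a lncRNA named Gm56644, at 94.5% over 528 bases and 95.6% over 521 bases, and Gm5165 matched Gm51425 at 96.05% over 2227 bases. Since the treatment of reads with several matches was not given in the sources used here, the values of Gm20939, Gm32856 and Gm5165 are uncertain. Shared reads remain possible for BC002059 and Gm6712 too.

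**Figure D4:**
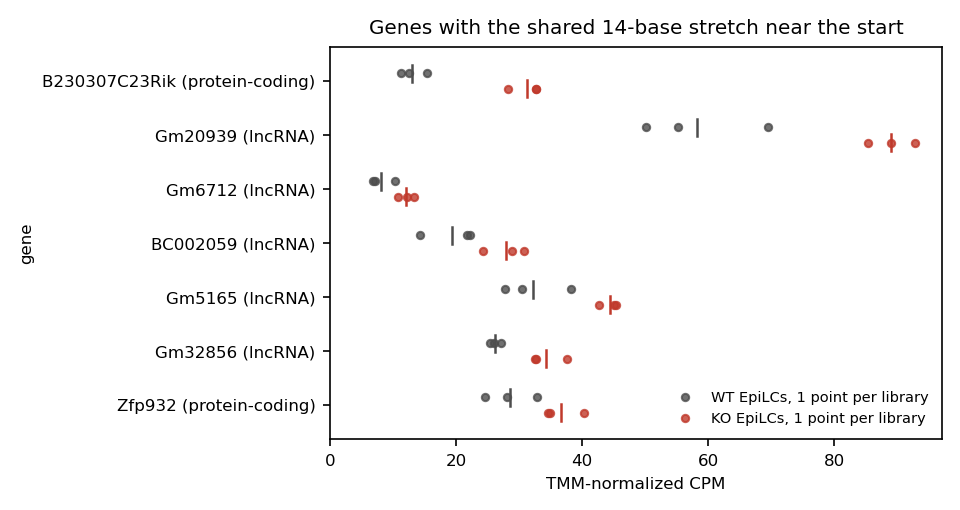
TMM-normalized CPM (horizontal axis) of the 7 genes in the counts whose start window holds the shared stretch, 5 lncRNAs and 2 protein-coding genes, with 1 point per library and a tick at the mean of 3. In every gene the KO points lie right of the WT points.

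POU factors bind octamer motifs, and the windows were therefore searched for ATGCAAAT on both strands. It lay in 5 of 75 windows of abundant lncRNAs, which belong to 4 genes, and in 570 of 32851 windows of the table (1.74%). Gm20939 and Gm32856 were called higher, while 2700038G22Rik (0.22) and Platr21 (0.13) were not called. The site in Gm20939 (chr17:95172094-95172181, plus strand) is shown with the octamer in capitals, upstream of the stretch above.
Gm20939 octamer: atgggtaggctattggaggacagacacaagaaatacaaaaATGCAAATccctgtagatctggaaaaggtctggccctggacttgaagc

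TATAAA on the given strand lay in 8 of 75 windows of abundant lncRNAs and in 2733 of 32851 windows of the table (8.32%). The lncRNAs were 1110038B12Rik, 5530601H04Rik, Dleu2, Rab26os, Snhg3, Snhg5 and Snhg8. EdgeR called none of these 7, beside 24.3% of all genes tested and 30% of the 90, and a count of 0 among so few says little. A match describes the letters in the window and does not show binding.

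The largest decrease was that of Bc1, brain cytoplasmic RNA 1, which RNA polymerase III transcribes and which represses translation in neurons. Its whole transcript of 176 bases (chr7:144468199-144468374, plus strand, GENCODE M39) is printed because of its rank per length, with the start of its A-rich middle in capitals.
Bc1: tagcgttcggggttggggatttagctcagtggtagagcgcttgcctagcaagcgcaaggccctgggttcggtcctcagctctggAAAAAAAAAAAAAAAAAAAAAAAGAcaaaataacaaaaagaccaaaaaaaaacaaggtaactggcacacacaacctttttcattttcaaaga

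Bc1 stood at 139.6, 104 and 85.8 CPM in WT replicates 1, 2 and 3 and 35.6, 69.1 and 35.8 CPM in KO replicates 1, 2 and 3. All KO libraries lay below all WT libraries, KO replicate 2 nearer to WT than the other KO libraries, and WT itself spanned a wide range. The log2 fold change was -1.23 (SE 0.20, adjusted p = 2.44e-04, same edgeR test), and between -1.62 and -1.02 with a library left out. Bc1 gave rise to the ID repeats of rodent genomes, so reads of such copies may be counted with it.
Gm43803 on chromosome 3 stood at 27.5, 29.1 and 37.3 CPM in WT replicates 1, 2 and 3 and 20.2, 21.6 and 22.3 CPM in KO replicates 1, 2 and 3. The KO libraries were close together below all WT libraries, and the log2 fold change was -0.55 (SE 0.14, adjusted p = 0.00685, same edgeR test).
B830012L14Rik, on chromosome 12 in the imprinted region of Dlk1 and Meg3, stood at 45.1, 39.3 and 37.3 CPM in WT replicates 1, 2 and 3 and 30.96, 30.7 and 30.6 CPM in KO replicates 1, 2 and 3. KO values were nearly the same in all replicates and lay below WT, with a log2 fold change of -0.40 (SE 0.12, adjusted p = 0.0194, same edgeR test).
2610037D02Rik stood at 16.01, 16.4 and 20.1 CPM in WT replicates 1, 2 and 3 and 11.5, 13.01 and 14.03 CPM in KO replicates 1, 2 and 3, without overlap. The log2 fold change was -0.45 (SE 0.16, adjusted p = 0.0507, same edgeR test), and the adjusted p was 0.178 without KO replicate 1, 0.106 without KO replicate 2 and 0.2004 without WT replicate 3.
With Snhg11 these were the 5 lncRNAs called lower.

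Changes of the lncRNAs were set beside those of the protein-coding gene with the nearest start, at a median distance of 24106 bases. In 16 pairs the neighbour lay on the opposite strand with its start within 1000 bases, and 15 of these neighbours were tested.
Among the 16, 5 lncRNAs were called higher and 1 lower, 4 of the 15 neighbours tested were called, close to the 24.3% of all genes tested, and in 1 pair both were, 2610037D02Rik with Arid2, a subunit of a chromatin remodeler.
Arid2 had 119, 99.4 and 116 CPM in WT and 89.2, 85.4 and 90.1 CPM in KO, all KO values below WT, and a log2 fold change of -0.34 (SE 0.10, adjusted p = 0.0227, same edgeR test).
Ncapg2, beside D430020J02Rik, had 125, 117 and 153 CPM in WT and 135, 149 and 128 CPM in KO, and its groups overlapped, with a log2 fold change of 0.061 (SE 0.11, adjusted p = 0.765, same edgeR test).
The reverse held for Rab30, a small GTPase gene that starts 135 bases from 4632427E13Rik. It was called higher at 3.05, 2.73 and 3.85 CPM in WT and 9.54, 6.004 and 8.55 CPM in KO (1.31, SE 0.24, adjusted p = 6.43e-04, same edgeR test), and the lncRNA had a log2 fold change of 0.057 (SE 0.12, adjusted p = 0.795, same edgeR test). The neighbours Zbtb37 of Gas5 (0.33, adjusted p = 0.0841, same edgeR test) and Brip1 of Brip1os (0.40, adjusted p = 0.015, same edgeR test) were likewise called higher. The call of Zbtb37 ended with DESeq2 (adjusted p = 0.117) and, by edgeR, with library totals alone (0.128) and no filter (0.121). It also ended by edgeR without KO replicate 1 (0.222), KO replicate 3 (0.194), WT replicate 2 (0.334) or WT replicate 3 (0.115). Rab30, Zbtb37 and Brip1 were named after their values were seen.

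Of the 27 lncRNAs called, 23 had a nearest gene that was tested, and in 5 of them the gene was called in the same direction and in 1 in the opposite one, Myo1g beside Snhg15 (-1.05, SE 0.33, adjusted p = 0.0303, same edgeR test). Neighbours were thus called about as often as all genes tested (24.3%). The adjusted p of Myo1g in that edgeR test was 0.136 without KO replicate 1 and 0.118 without KO replicate 3.
The zinc finger gene Zfp936, 36448 bases from EU599041 on the same strand, had 47.4, 35.6 and 50.6 CPM in WT and 146, 114 and 132 CPM in KO. It was higher in each KO library than in any WT library, with a log2 fold change of 1.55 (SE 0.13, adjusted p = 1.98e-07, same edgeR test), larger than that of the lncRNA.
Zfp619, near Gm33989, had 11.5, 7.74 and 11.001 CPM in WT and 21.3, 19.2 and 24.5 CPM in KO, likewise apart, and 1.10 (SE 0.17, adjusted p = 1.30e-04, same edgeR test). Zfp97, near Gm5165, had a log2 fold change of 0.34 (SE 0.13, adjusted p = 0.0683, same edgeR test), and its adjusted p was 0.102 with library totals alone, 0.123 without KO replicate 1, 0.144 without KO replicate 2, 0.161 without KO replicate 3, 0.192 without WT replicate 1 and 0.253 without WT replicate 2.
Snhg11 and Ralgapb were both called lower (-0.35 and -0.24), Ralgapb with an edgeR adjusted p of 0.0813, and 0.153 with no filter, 0.125 without KO replicate 1, 0.255 without KO replicate 2, 0.164 without KO replicate 3, 0.142 without WT replicate 1, 0.101 without WT replicate 2 and 0.142 without WT replicate 3.
Near the other lncRNAs with the largest changes, Cstf3 (Platr14), Mettl4 (Gm20939), Zfp960 (BC002059), Riok2 (Gm6712), Gpn1 (4930566F21Rik), Klhl25 (AU020206) and Lhfpl6 (Gm43803) were not called, and Gpn1 passed with the replicate block (adjusted p = 0.0863, edgeR). Around Lncenc1, Gm32885 and Bc1 the nearest genes were not called. Enc1 (-0.13), Pced1b (-0.31) and LTO1 (0.27) had log2 fold changes opposite in sign to those of the lncRNAs.
Where the nearest gene bore a Zfp symbol, a split made after the values were seen, 5 of 11 lncRNAs were called higher and 0 lower, against 17 and 5 of the other 79. The median log2 fold change was 0.14 in the former and 0.15 in the latter, so the size of change did not set them apart. Of all genes tested, 11.8% were called higher and 12.5% lower, and 11 lncRNAs are too few to set beside these shares.

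**Figure D5:**
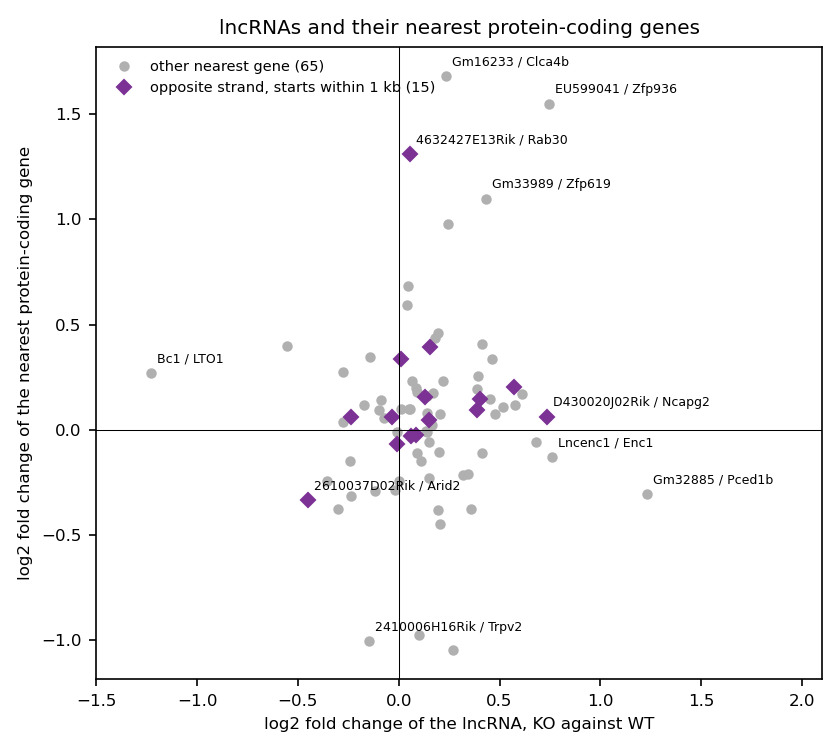
Log2 fold change, KO against WT, of each lncRNA (horizontal axis) and of its nearest protein-coding gene (vertical axis), for pairs in which both were tested. Diamonds mark the 15 pairs on opposite strands that start within 1000 bases of each other, circles all other pairs, and labels give lncRNA and neighbour.

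Overlap with other genes limits what single values mean. Exons of 62 of the 90 lncRNAs overlapped exons of a gene on the opposite strand and those of 42 exons on the same strand, and 17 overlapped none. Among these 17, 9 were called higher and 0 lower by edgeR, beside 24.4% and 5.56% of all 90 and 11.8% and 12.5% of all genes tested. D430020J02Rik, Gm17491 and Gm6712, which reached the limit through KO, were among the 9.
Whether counting used the strand was not given in the sources used here. Of 114 genes that lie wholly inside opposite-strand exons, 53 had counts and 17 had at least 60 in all.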

How the data were processed

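RNA-seq of 3 WT and 3 Oct6 KO EpiLC replicates was analysed from the deposited raw counts per gene, which the authors obtained from reads mapped to GRCm39 with STAR, without normalization. Identifiers were matched to GENCODE M39 (54749 of 55416). Differential expression was tested over 15746 genes passing filterByExpr (minimum count 10) with edgeR 4.0.16 in R 4.3.3 (TMM, quasi-likelihood test, genotype only, Benjamini-Hochberg over all genes tested), at an adjusted p below 0.1, after a check on simulated data. SEs come from the F statistic. With 3 libraries per group, the common dispersion was 0.0137, and the SE differed by gene.
Shares were compared by exact permutation. Canonical transcripts were aligned with BLAST+ 2.17.0 (at least 90% identity over 300 bases), and promoter windows and mature microRNAs came from RefSeq.

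Named were the 12 most abundant lncRNAs, up to 10 largest called increases and decreases with one direction in all same-numbered pairs, lncRNAs on lists by role, the 3 nearest above and below the limit, neighbours of the called and called partner genes. The members and lists were chosen with earlier results of these data known. Alternatives were DESeq2 1.42.0, RLE size factors, library totals, TMM without chromosomes 6 and 16, other filters, a replicate block, an adjusted p below 0.05, other member limits, another denominator and, in turn, the omission of each library.
The series describes the replicates as paired. Over 11448 genes, which are not independent replicates, deviations from group means correlated at 0.276, 0.3505 and 0.124 between libraries of the same number and at -0.263 to -0.0226 between others. Deviations from a group mean cancel within the group, so positive correlations in pairs push the others down. The main test did not use the pairs, and calls with the replicate block are given beside it.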

Additional observations from a re-analysis of the deposited data

How the results depend on the processing

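The 27 calls became 25 with DESeq2, 27 with RLE size factors, 26 with library totals, 25 with no filter and 37 with the replicate block, which kept all 27 and added Gm17066 and Ppp1r36dn besides the members given above. It changed no other call among the members. Among the members added by the block, Malat1, Snhg14, Firre, Mir17hg, Platr4, Platr7, Pvt1 and Gm17066 also passed in another alternative. With a library left out 20 to 27 were called.
With a limit of 5 CPM (166 lncRNAs) 46 were called, 37 higher and 9 lower, and among those without exon overlap (17) 9 higher and 0 lower. Over all genes tested 24.3% were called, 11.8% higher and 12.5% lower. Lower calls were 8 with the replicate block and 3 at an adjusted p below 0.05.
Leaving out a library moved the median log2 fold change of all listed genes to -0.41 to -0.23 (nuclear), -0.28 to -0.060 (microRNA hosts), 0.12 to 0.36 (X inactivation centre), -0.96 to -0.46 (neural) and -0.075 to 0.087 (Pumilio and microRNA effectors). With 10 counts in every library the microRNA host median was 0.21, over fewer genes.
The KO minus WT share ran from -0.00862 to 0.0329 percentage points for all lncRNAs and from -0.00694 to 0.0281 for the abundant ones.
The sign turned among lncRNAs that were not called. The log2 fold change of Gas5 was -0.015 with library totals, and that of Snhg17 -0.022 with library totals and -0.0037 with no filter. With a library left out the ranges were -0.072 to 0.011 (Platr10), -0.041 to 0.067 (Gas5), -0.036 to 0.12 (Snhg5), -0.069 to 0.058 (Norad), -0.039 to 0.25 (Oip5os1), -0.092 to 0.12 (Snhg17), -0.017 to 0.20 (Snhg3), -0.31 to 0.11 (Eprn), -0.090 to 0.063 (Snhg20), -0.031 to 0.13 (Platr22), -0.47 to 0.10 (Neat1) and -0.055 to 0.23 (Gm20707). The cause was not tested.
Over 50 named lncRNAs, 582 of the alternative values kept the side of the threshold and the direction, 21 newly passed, 21 no longer passed and 26 changed sign.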

Other observations

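Several listed lncRNAs lay below the limit. Of the pluripotency list, Platr3 (0.61), Platr20 (0.59), Platr27 (0.73) and Platr28 (1.27) were called higher in KO by edgeR, as were Platr25 (0.52) and Tunar (1.02), which M39 annotates as protein-coding.
Platr28 had 1.79, 1.18 and 2.63 CPM in WT replicates 1, 2 and 3 and 4.53, 3.93 and 5.33 CPM in KO replicates 1, 2 and 3. Its groups were apart, with a log2 fold change of 1.27 (SE 0.30, adjusted p = 0.00553, same edgeR test).
Platr27 had 4.91, 8.29 and 5.13 CPM in WT and 7.92, 11.9 and 10.2 CPM in KO, where WT replicate 2 lay above KO replicate 1. Its adjusted p in the edgeR test was 0.132 without KO replicate 2 and 0.112 without WT replicate 3. The adjusted p of Platr3 was 0.145 with DESeq2 and, by edgeR, 0.113 with no filter, 0.262 without KO replicate 2, 0.102 without KO replicate 3, 0.165 without WT replicate 1 and 0.173 without WT replicate 2, and that of Platr20 0.146 with DESeq2 and, by edgeR, 0.1098 with no filter, 0.224 without KO replicate 2, 0.215 without KO replicate 3, 0.173 without WT replicate 1 and 0.161 without WT replicate 2.
With the replicate block Platr1 and Platr12 also passed (adjusted p = 0.0828 and 0.0674 in the edgeR test, ranges over alternatives 0.0333 to 0.369 and 0.0674 to 0.439).

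Of 17 neural and developmental lncRNAs none was an abundant member. Of these, 5 were tested, 0 were called higher and 3 lower, Miat among them, beside 11.8% and 12.5% of all genes tested. Log2 fold changes of those tested ran from -1.62 to 0.94, so not all went down. Halr1, a chromosome 6 transcript beside the Hoxa cluster, had 10.9, 9.38 and 12.7 CPM in WT replicates 1, 2 and 3 and 2.18, 3.85 and 4.65 CPM in KO replicates 1, 2 and 3. The KO values were all far below WT, with a log2 fold change of -1.62 (SE 0.24, adjusted p = 9.36e-05, same edgeR test).
Sox1ot, which overlaps the neural gene Sox1, had 2.53, 2.28 and 2.16 CPM in WT and 0.404, 1.46 and 1.13 CPM in KO, again without overlap, with a log2 fold change of -1.20 (SE 0.40, adjusted p = 0.0432, same edgeR test). Without KO replicate 1 its edgeR adjusted p was 0.183.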
